A study of Mus musculus with 6 samples.

Results

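The genes described here carry the names of the proteasome, the protease that degrades ubiquitin-tagged proteins. They are 51 of the 27884 genes in the deposited table, namely all protein-coding genes whose symbol begins with Psma, Psmb, Psmc, Psmd, Psme, Psmf or Psmg followed by a digit. Members were chosen by symbol alone, from the rows of that table. Their levels in immunoprecipitated (IP) and input libraries were already known when the family was put forward, so the counts and medians below describe it and support nothing further about it. The libraries came from the preoptic area of female NuTRAP::Pnoc-Cre mice aged 17 to 18 weeks. In NuTRAP mice Cre switches on an EGFP tag on a ribosomal protein, here in cells that express or once expressed Cre under Pnoc, the gene of the nociceptin precursor. In each of 3 replicates tissue of 3 animals was pooled, and RNA bound to tagged ribosomes was collected with an antibody against GFP (IP, n = 3) beside total RNA of the same pool (input, n = 3). Both groups carry the same alleles, and the input contains the RNA of the tagged cells too. No precipitation from mice without Cre was analysed here.

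The proteasome consists of a barrel, the core particle, capped by a regulatory particle. The barrel stacks rings of alpha subunits around rings of beta subunits, some of which cut peptide bonds. The cap has a base, whose ATPase ring unfolds substrates, and a lid, which removes ubiquitin. Dedicated chaperones assemble both particles. Other activators can replace the cap, and inflammatory signals exchange the catalytic subunits for those of the immunoproteasome. Neurons depend on the proteasome for protein turnover at synapses.

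Promoter windows are shown for 4 members to set core particle genes beside regulatory particle genes, whose values are set side by side below. RefSeq windows of 300 bases, from 250 before to 50 after the transcription start, were found for 43 of the 51 members. Capitals mark TGANNNNGC, the core of the antioxidant response element, or CCGGAAG, a longer form of an ETS site, on either strand. Psmb5 and Psmb6 encode catalytic beta subunits, Psmd12 a lid subunit and Psmd2 a base subunit that docks ubiquitin carriers.
Psmb5 (chr14:54617946-54618245, GRCm38.p6, minus strand): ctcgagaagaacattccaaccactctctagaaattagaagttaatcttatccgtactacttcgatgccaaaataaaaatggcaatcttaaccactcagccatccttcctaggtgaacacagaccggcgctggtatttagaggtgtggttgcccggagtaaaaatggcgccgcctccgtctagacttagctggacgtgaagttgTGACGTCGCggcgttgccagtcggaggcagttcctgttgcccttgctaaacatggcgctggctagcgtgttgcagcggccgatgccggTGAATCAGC
Psmb6 (chr11:70525107-70525406, GRCm38.p6, plus strand): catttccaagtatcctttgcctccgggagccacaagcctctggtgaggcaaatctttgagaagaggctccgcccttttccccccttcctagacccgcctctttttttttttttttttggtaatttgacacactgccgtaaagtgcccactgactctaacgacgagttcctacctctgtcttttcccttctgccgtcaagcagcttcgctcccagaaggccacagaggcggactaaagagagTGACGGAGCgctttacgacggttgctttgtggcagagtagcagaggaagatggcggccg
Psmd12 (chr11:107479278-107479577, GRCm38.p6, plus strand): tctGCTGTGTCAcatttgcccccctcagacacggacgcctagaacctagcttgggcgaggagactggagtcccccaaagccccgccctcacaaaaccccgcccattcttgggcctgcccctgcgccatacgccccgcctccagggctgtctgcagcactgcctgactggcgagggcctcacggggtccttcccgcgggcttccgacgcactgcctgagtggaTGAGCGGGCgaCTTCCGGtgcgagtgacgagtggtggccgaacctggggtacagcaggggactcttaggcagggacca
Psmd2 (chr16:20651402-20651701, GRCm38.p6, plus strand): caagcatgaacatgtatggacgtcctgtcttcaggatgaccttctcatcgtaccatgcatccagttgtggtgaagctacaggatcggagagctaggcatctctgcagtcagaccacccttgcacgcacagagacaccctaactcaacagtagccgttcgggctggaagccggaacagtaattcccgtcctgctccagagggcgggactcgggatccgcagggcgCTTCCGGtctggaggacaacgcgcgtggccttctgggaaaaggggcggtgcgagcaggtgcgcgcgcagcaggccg
The letters CCGGAAG were in 0 of 11 windows of standard core subunits and in 9 of 14 windows of regulatory particle subunits, against 9.12% of 27025 genes with a window. TGANNNNGC was in 8 of the 11 core windows and in 5 of the 14 regulatory windows, against 41.4% of all genes. CCAAT was in 6 of 11 core and 4 of 14 regulatory windows, against 37.9% of all genes. GCGCANGCG, the repeat unit of a site for the nuclear respiratory factor NRF1, was in 3 core and 3 regulatory windows, against 6.47% of all genes. GAAANNGAA, the repeat of an interferon response element, was in 2 core windows, 1 regulatory window and 0 of 3 immunoproteasome windows, against 8.57% of all genes. Median GC content was 54.7% in the core windows and 60.5% in the regulatory windows, against 52.7% over all genes. Each motif was searched on both strands, the motifs may overlap one another, and a match describes letters and not a bound site. Other forms of the ETS site were not searched, so a window without CCGGAAG may still hold an ETS site.

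Total counts lay between 48204567 and 51380354 in the IP libraries and between 49068467 and 53056642 in the input libraries. Pnoc, the gene that drives Cre, had 47.7, 43.1 and 41.1 CPM (counts scaled by library size) in IP replicates 1, 2 and 3, against 7.51, 11.0 and 13.2 CPM in input replicates 1, 2 and 3. Its log2 fold change was 2.06 ± 0.22 (SE; adjusted p = 0.000472, edgeR). Of the neuronal markers, 3 of 6 pan-neuronal and 2 of 3 GABAergic genes were higher in IP, and none of these 9 was lower, although Map2, at a log2 fold change of -0.56, was called lower with the replicate block (adjusted p = 0.0123). Markers of other cells were lower in IP throughout: 10 of 10 of microglia, 6 of 6 of astrocytes, 6 of 6 of oligodendrocytes, 5 of 5 of endothelium and 3 of 3 of ependyma. Summed microglial markers were at 24.6 to 35.1 CPM in IP and 216 to 275.5 CPM in input. The sums were 592.2 to 724.6 CPM in IP against 1931 to 2447 CPM in input for astrocytes, and 601.1 to 869.6 CPM in IP against 4410 to 5720 CPM in input for oligodendrocytes. Endothelial markers summed to 2.16 to 3.27 CPM in IP and 9.53 to 20.7 CPM in input, and ependymal markers to 6.48 to 7.46 CPM in IP and 15.9 to 30.3 CPM in input. With single libraries left out, Snap25, Aif1, Pecam1, Kdr, Cdh5, Rarres2 and Ccdc153 lost their calls at least once, and no other of these markers did. The block also ended the call of Cdh5 (adjusted p = 0.0561). No marker was at 0 in all libraries of either group. In such bulk libraries more cells with a transcript and more of it per cell cannot be told apart, and the part of the changed cell makeup in the proteasome values was not tested.

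Of the 51 members, 50 had enough counts to be tested, and edgeR's quasi-likelihood test called 21 of these higher and 2 lower in IP (threshold on the adjusted p, 0.05). Over all 18640 genes tested, 30.0% were called, 12.9% higher and 17.1% lower. The median log2 fold change was 0.44 over the tested members and -0.07 over all genes. Of the members, 40 of 50 had a positive log2 fold change. All 3 IP libraries lay above all 3 input libraries for 31 members, against 21.7% of all genes tested, and below them for 3 members (Psmd1, Psmd11 and Psme4), against 26.0% of all genes. Groups without overlap were thus common over the whole table, and where given below for single genes they are description. The plot of fold changes by role shows that the positive values were spread over nearly all subcomplexes, with Psmg3, Psmb10, Psme2, Psmg4 and Psmb6 at the top.

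**Figure D1:**
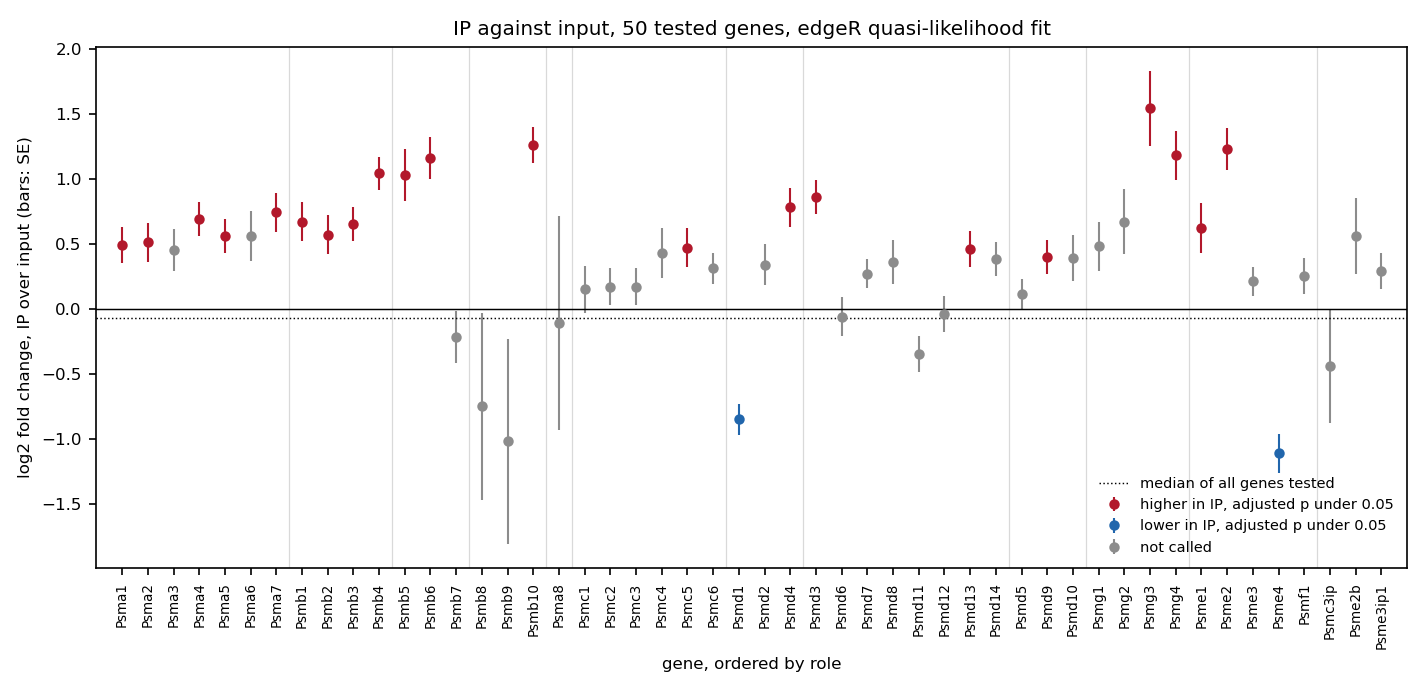
Log2 fold change, IP over input, with its SE for the 50 tested members from left to right by role; thin vertical lines part the roles and the dotted line is the median of all genes tested, -0.07. Psmg3 at 1.54 is the highest value and Psme4 at -1.11 the lowest.

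With the replicate as a block, 24 members were higher and 2 lower, against 15.2% and 19.4% of all genes. Corrected for transcript length and GC content, with the block, 25 members were higher and 2 lower, against 16.9% and 18.0%. The median of the members was then 0.36. Scaling by library totals alone gave a median of -0.17 over all genes, a shift of 0.10 against the reported scaling, and gave 14 members higher and 3 lower, against 9.30% and 19.7% of all genes. Over the whole table that scaling gave 1734 genes higher and 3678 lower, in place of 2400 higher and 3191 lower. Without any one library the number of higher members lay between 12 (without input replicate 3) and 29 (without input replicate 2); it was 13 when IP replicate 1 or IP replicate 2 was left out, and 14 when IP replicate 3 was. The 12 members higher in every such fit were Psma4, Psma7, Psmb3, Psmb4, Psmb5, Psmb6, Psmb10, Psmd3, Psmd4, Psme2, Psmg3 and Psmg4.

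The alpha ring forms the outer gate of the barrel. Of its 7 genes, Psma1 to Psma7, 5 were higher in IP and 0 lower, and the median log2 fold change was 0.56. Psma7 (chromosome 2, 179678167 to 179684226, minus strand, mm39) rose most. It had 146.0, 142.0 and 150.2 CPM in IP replicates 1, 2 and 3, and 72.0, 101.6 and 88.6 CPM in input replicates 1, 2 and 3. All IP values lay above all input values, and the IP values were the closer together. Its log2 fold change was 0.74 ± 0.15 (SE; adjusted p = 0.00752, edgeR). Psma4 followed with 0.69 ± 0.13 (adjusted p = 0.00587), and Psma1, Psma2 and Psma5 rose by 0.49, 0.51 and 0.56 on the log2 scale. Psma1 and Psma2 lost the call without IP replicate 1, 2 or 3 or without input replicate 1 or 3, and Psma5 lost it without IP replicate 1 or 2 or input replicate 3. Psma3 and Psma6 had log2 fold changes of 0.45 ± 0.16 and 0.56 ± 0.19 and missed the threshold at adjusted p = 0.0636 and 0.0508. With the replicate as a block both were called, at adjusted p = 0.0337 and 0.0229, so that all 7 alpha genes were then higher, and both were also called without input replicate 2. Correction for length and GC with the block put Psma2 at 0.90, Psma3 at 0.83, Psma7 at 0.49 and Psma6 at 0.46, all called, so that Psma7 no longer led the ring. For all 7 genes the 3 IP libraries lay above the 3 input libraries, against 21.7% of all genes tested.

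**Figure D2:**
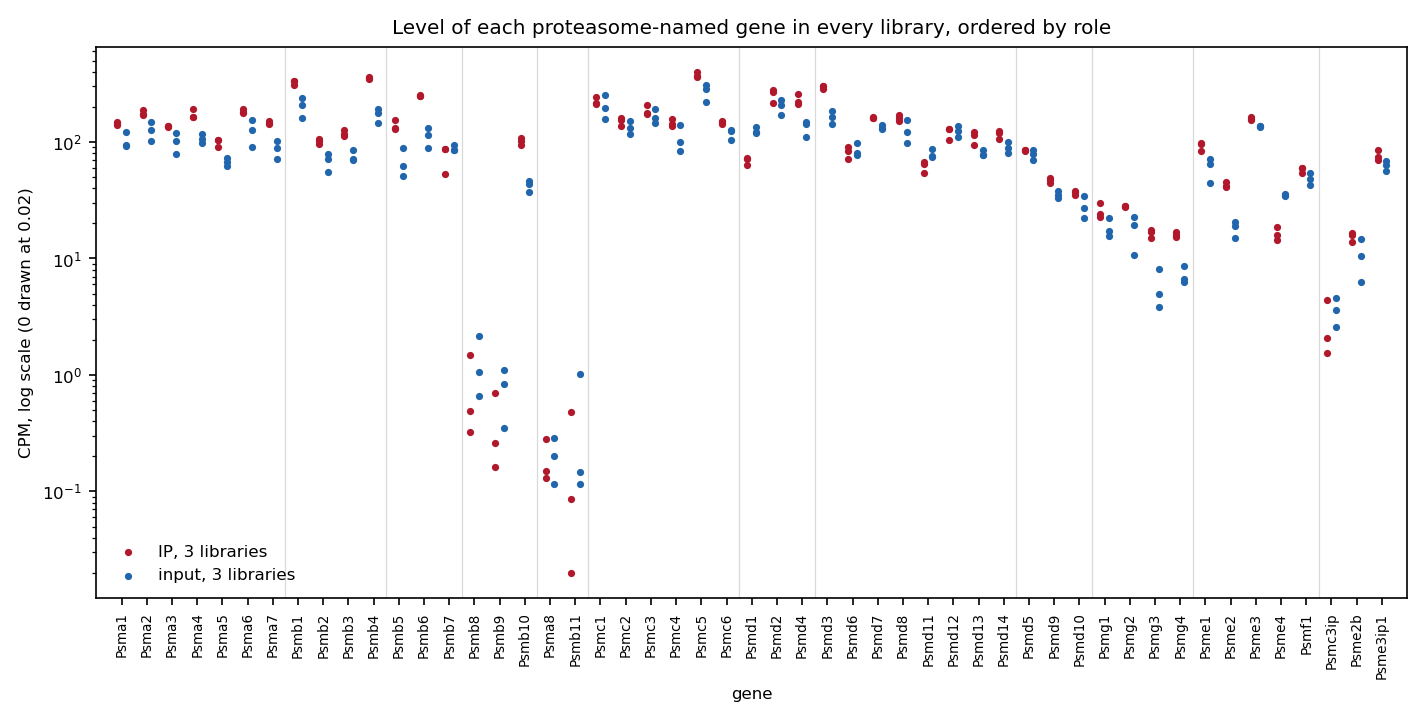
CPM of each of the 51 members on a log axis, with the 3 IP libraries in red left of the 3 input libraries in blue; members are ordered by role and a value of 0 is drawn at 0.02. Levels are comparable within a gene only, since CPM is not divided by length; Psmb8, Psmb9, Psma8 and Psmb11 lie far below the other subunits in both groups.

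Of the 4 structural beta subunits, which shape the ring and do not cut, all 4 were higher in IP, with a median log2 fold change of 0.66. Psmb4 (chromosome 3, 94791404 to 94794272, minus strand, mm39) had 351.9, 360.5 and 350.6 CPM in the IP replicates and 146.5, 193.7 and 177.2 CPM in the input replicates. The groups did not overlap, and the lowest IP value was well above the highest input value. The log2 fold change of Psmb4 was 1.04 ± 0.13 (SE; adjusted p = 0.00114, edgeR), a 2.05-fold difference. Psmb1, Psmb2 and Psmb3 rose by 0.67, 0.57 and 0.65 on the log2 scale. Psmb1 lost its call without IP replicate 3 or input replicate 3, and Psmb2 without any one IP replicate or without input replicate 3. Psmb3, whose transcript of 774 bases is among the shortest of the family, lost its call after correction for length and GC with the block, with a log2 fold change of 0.31.

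Among the 3 constitutive catalytic subunits, Psmb5 and Psmb6 rose in IP and Psmb7 was not called. Psmb5, the subunit with chymotrypsin-like activity (chromosome 14, 54851576 to 54855479, minus strand, mm39), had 130.9, 154.5 and 129.0 CPM in the IP replicates and 51.4, 88.1 and 62.8 CPM in the input replicates. Its groups did not overlap, although input replicate 2 stood above the other inputs. The log2 fold change was 1.03 ± 0.20 (SE; adjusted p = 0.00692, edgeR). Psmb6, the caspase-like subunit (chromosome 11, 70416193 to 70418684, plus strand, mm39), had 247.4, 247.8 and 253.0 CPM in the IP replicates and 88.1, 131.5 and 114.8 CPM in the input replicates. Its IP libraries were almost equal, while the inputs spread widely below them. The log2 fold change of Psmb6 was 1.16 ± 0.16 (SE; adjusted p = 0.00153, edgeR), a 2.24-fold difference.

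Psmb7, the trypsin-like subunit, had 86.4, 87.4 and 52.9 CPM in the IP replicates and 85.9, 93.5 and 85.0 CPM in the input replicates. IP replicate 3 was low and the other IP values lay within the input range. Its log2 fold change was -0.22 ± 0.20 (SE; adjusted p = 0.438, edgeR), and it moved between -0.33 and -0.01 when single libraries were left out. Of the exonic bases of Psmb7, 46.8% are shared with Nek6 on the opposite strand. Whether reads were counted by strand is not given in the sources used here, so the reads of these genes may be mixed. Psmb7 was the one standard core subunit of 14 without a positive log2 fold change.

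The immunoproteasome subunits replace the constitutive ones after interferon signals: Psmb9 takes the place of Psmb6, Psmb10 that of Psmb7 and Psmb8 that of Psmb5. Psmb10 (chromosome 8, 106662367 to 106665076, minus strand, mm39) had 101.4, 94.0 and 107.7 CPM in the IP replicates and 37.1, 43.8 and 46.0 CPM in the input replicates. The groups did not overlap, and the spread within each was small. Its log2 fold change was 1.26 ± 0.14 (SE; adjusted p = 0.000523, edgeR), a 2.39-fold difference, and stayed between 1.18 and 1.36 without any one library. Psmb8 had 0.490, 0.325 and 1.47 CPM in the IP replicates and 0.657, 1.05 and 2.15 CPM in the input replicates. Both groups overlapped, with replicate 3 the highest in each, and the log2 fold change of -0.75 ± 0.72 was not called (adjusted p = 0.476, edgeR). Psmb9 had 0.704, 0.260 and 0.161 CPM in the IP replicates and 0.831, 0.349 and 1.10 CPM in the input replicates. Its groups overlapped too, with a log2 fold change of -1.02 ± 0.79 (adjusted p = 0.37, edgeR), and 19.6% of its exonic bases are shared with Tap1 on the other strand. The 3 immunoproteasome genes thus did not move as a group, and 1 of 3 was called.

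Levels of different genes were compared per length, as the deposited FPKM (fragments scaled by gene length and library size). Psmb10 was at 59.0, 55.2 and 63.5 FPKM in the IP replicates and 21.1, 25.3 and 26.6 FPKM in the input replicates. Psmb7, which it can replace, was at 25.1, 25.6 and 15.5 FPKM in the IP replicates and 24.3, 26.9 and 24.5 FPKM in the input replicates. On this scale Psmb10 was above Psmb7 in each IP library, and in input their ranges overlapped, but the order depended on the gene length used. As CPM per kilobase of the canonical transcript, Psmb10 was at 77.3, 71.7 and 82.1 in the IP replicates and 28.3 to 35.0 in input, and Psmb7 at 74.5, 75.4 and 45.6 in the IP replicates and 73.3 to 80.6 in input. Psmb7 was then the higher gene in IP replicate 2 and in all inputs. Psmb8 and Psmb9 stayed below 1 FPKM in all 6 libraries. The log2 ratio of the summed FPKM of Psmb8, Psmb9 and Psmb10 to that of Psmb5, Psmb6 and Psmb7 was -2.34, -2.58 and -2.21 in the IP replicates and -2.54, -2.91 and -2.48 in the input replicates. These ranges overlapped, while within each of the 3 paired pools the ratio was higher in IP. From summed CPM the ratio was -2.18, -2.37 and -1.99 in the IP replicates and -2.55, -2.79 and -2.42 in the input replicates, without overlap. The ratio was not tested. Nearly all of the numerator was Psmb10 in both groups.

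**Figure D3:**
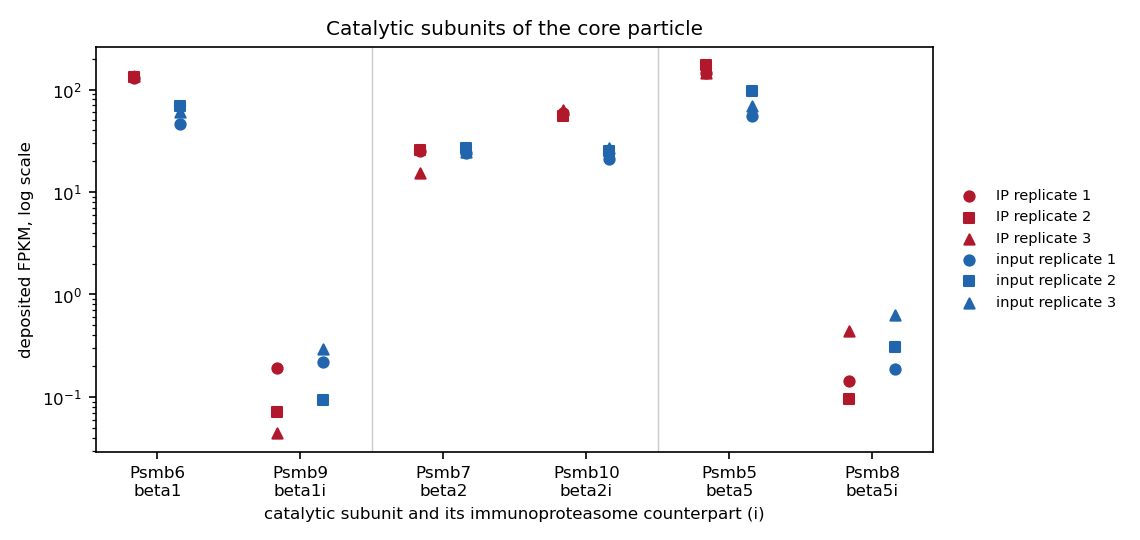
Deposited FPKM (log axis) of each constitutive catalytic subunit and, right of it, its immunoproteasome counterpart, with IP libraries in red left of input libraries in blue and 1 marker shape per replicate. Psmb10 lies between 55.2 and 63.5 FPKM in IP and between 21.1 and 26.6 FPKM in input, while Psmb8 and Psmb9 lie below 1 FPKM in all libraries.

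Both tissue-restricted core subunits were near the limit of counting. Psmb11, which belongs to the proteasome of the thymic cortex, had 0.0853, 0 and 0.484 CPM in the IP replicates and 1.02, 0.147 and 0.116 CPM in the input replicates, and too few counts for the test. Psma8, the alpha subunit of the testis, had 0.149, 0.130 and 0.282 CPM in the IP replicates and 0.116, 0.202 and 0.290 CPM in the input replicates, with overlapping groups and a log2 fold change of -0.11 ± 0.82 (adjusted p = 0.934, edgeR). A count of 3 corresponds to 0.0551 to 0.0651 CPM in these libraries.

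Over the 14 standard core subunits 11 were higher and 0 lower in IP, with a median log2 fold change of 0.61. The replicate block gave 13 higher, the length and GC correction with the block 12, and library totals alone 8. The FPKM of these subunits, whose proteins occur in equal number in the barrel, were not equal in any library. Psmb4 was highest in IP with 179.0, 185.1 and 180.5 FPKM, and it was highest also per canonical length. The lowest in IP was Psmb7 by FPKM and Psmb2 per canonical length. The coefficient of variation across the 14 genes was 59.9 ± 1.49% in IP and 47.1 ± 4.27% in input (SD, n = 3 each). With the length of the canonical transcript as divisor it was 71.8 ± 2.44% in IP and 57.3 ± 0.97% in input, so its size depended on the length used while IP stayed above input.

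Of the 9 genes of the base, 2 were higher and 1 lower in IP. Of its 6 ATPases, Psmc1 to Psmc6, which form the unfolding ring, all had positive log2 fold changes, from 0.15 to 0.47, and Psmc5 alone was called higher. Psmc5 had 366.5, 398.5 and 362.1 CPM in the IP replicates and 219.7, 305.5 and 287.8 CPM in the input replicates. The groups did not overlap, and input replicate 1 was the lowest library. The log2 fold change of 0.47 ± 0.15 (SE; adjusted p = 0.0404, edgeR) lost its call without any one IP replicate or without input replicate 3, and 39.5% of the exonic bases of Psmc5 are shared with Smarcd2 on the other strand. Psmc4, at 0.43 ± 0.19 (adjusted p = 0.121), was called with the replicate block (adjusted p = 0.034) and without input replicate 2, but not after correction for length and GC with the block (0.25, adjusted p = 0.131). That correction moved Psmc6 from 0.31 ± 0.12 (adjusted p = 0.0974) to 0.75, where it was called higher (adjusted p = 0.00086), and Psmc3 from 0.17 to -0.06, not called.

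The 3 non-ATPase subunits of the base went different ways. Psmd4, a receptor for ubiquitin chains, had 218.9, 260.2 and 210.3 CPM in the IP replicates and 111.0, 147.7 and 141.5 CPM in the input replicates. Its groups did not overlap, and the log2 fold change was 0.78 ± 0.15 (SE; adjusted p = 0.00664, edgeR), or 0.51 and still called after correction for length and GC with the block. Psmd1, a large scaffold subunit (chromosome 1, 85992109 to 86066873, plus strand, mm39), had 72.9, 72.0 and 63.2 CPM in the IP replicates and 134.1, 119.2 and 122.8 CPM in the input replicates. All IP libraries lay far below all input libraries, the reverse of most subunits. Its log2 fold change was -0.85 ± 0.12 (SE; adjusted p = 0.00201, edgeR), a 1.81-fold lower level in IP, and stayed between -0.89 and -0.78 without any one library. Psmd2, the other large scaffold, was at 0.34 ± 0.16 and was not called (adjusted p = 0.139).

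In the lid, 2 of 8 genes were higher and 0 lower in IP, with a median log2 fold change of 0.31. Psmd3, a structural lid subunit, had 285.8, 305.0 and 302.9 CPM in the IP replicates and 143.5, 185.2 and 164.7 CPM in the input replicates. The groups did not overlap, and the log2 fold change was 0.86 ± 0.13 (SE; adjusted p = 0.00231, edgeR). Psmd13, another structural subunit, had 113.8, 122.5 and 93.7 CPM in the IP replicates and 77.1, 78.0 and 84.7 CPM in the input replicates. Although these groups did not overlap either, its log2 fold change of 0.46 ± 0.14 (adjusted p = 0.0368) kept the call in 7 of 18 alternatives. It lost the call without IP replicate 1 or 2 or without any one input replicate, and after correction for length and GC, and 30% of its exonic bases are shared with Cox8b on the other strand. Psmd14, the deubiquitinase of the lid, was at 0.38 ± 0.13 (adjusted p = 0.0615), and Psmd8 at 0.36 ± 0.17 (adjusted p = 0.153). Both were called higher without input replicate 2, and Psmd14 also after correction for length and GC with the block (0.61, adjusted p = 0.00359). Psmd11, which stabilises the joined particles, was at -0.35 ± 0.14 (adjusted p = 0.0914), with all IP values below all input values, and was called lower when library totals alone set the scale. Psmd6 and Psmd12 were at -0.06 ± 0.15 and -0.04 ± 0.14, and their sign turned under some alternatives.

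Over the 17 subunits of base and lid 4 were higher and 1 lower in IP, with a median log2 fold change of 0.31. These shares were 23.5% and 5.88%, against 12.9% and 17.1% of all genes. The replicate block gave 5 higher and 1 lower. Library totals alone gave 2 higher and 2 lower, 11.8% each, against 9.30% and 19.7% of all genes. Summed CPM of these 17 genes were 2880, 3088 and 2715 in the IP replicates and 2107, 2572 and 2343 in the input replicates, so that the lowest IP library was above the highest input library. Summed CPM of the 14 core genes were 2462, 2425 and 2372 in the IP replicates and 1256, 1741 and 1501 in the input replicates, a wider gap. The log2 ratio of the core sum to the regulatory sum was -0.23, -0.35 and -0.19 in the IP replicates and -0.75, -0.56 and -0.64 in the input replicates. The ranges did not overlap. This ratio was computed within each library and so does not depend on the scaling between libraries. Over all 51 members the sum was 6175, 6316 and 5909 CPM in the IP replicates and 3906, 4982 and 4468 CPM in the input replicates.

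**Figure D4:**
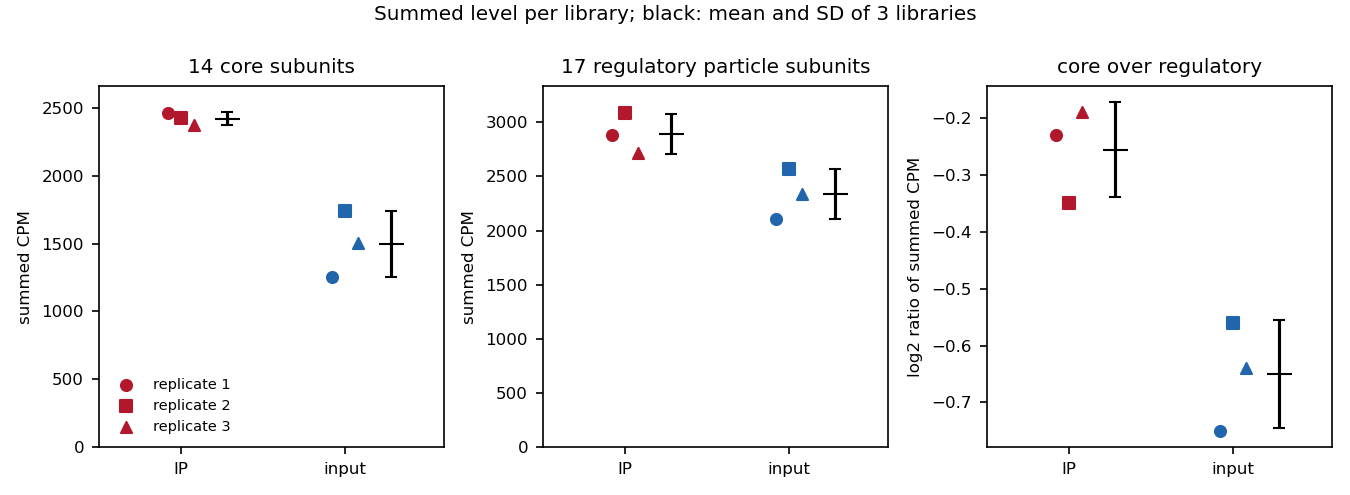
Summed CPM of the 14 core subunits, of the 17 regulatory particle subunits, and the log2 ratio of these sums, for each IP library in red left of each input library in blue, with the mean and SD of 3 libraries in black. The core sums are 2372 to 2462 CPM in IP and 1256 to 1741 CPM in input, and the log2 ratio is -0.35 to -0.19 in IP and -0.75 to -0.56 in input.

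Of the 4 chaperones that assemble the core particle, 2 were higher in IP, with a median log2 fold change of 0.92. Psmg3 (chromosome 5, 139809347 to 139812640, minus strand, mm39) had 17.5, 15.1 and 16.8 CPM in the IP replicates and 3.81, 8.17 and 4.99 CPM in the input replicates. Its groups did not overlap, and the inputs differed among themselves more than the IP libraries did. The log2 fold change of 1.54 ± 0.29 (SE; adjusted p = 0.00544, edgeR), a 2.91-fold difference, was the highest of all members. Psmg4, the partner with which Psmg3 acts as a pair, had 15.9, 15.4 and 17.0 CPM in the IP replicates and 6.22, 8.54 and 6.61 CPM in the input replicates. Again the groups did not overlap, and its log2 fold change was 1.18 ± 0.19 (SE; adjusted p = 0.00312, edgeR), or 0.73 and still called after correction for length and GC with the block. The other pair, Psmg1 and Psmg2, was at 0.48 ± 0.19 (adjusted p = 0.0889) and 0.67 ± 0.25 (adjusted p = 0.0804). Psmg2 was called with the replicate block (adjusted p = 0.0251), and both were called without input replicate 2.

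The 3 chaperones of the base were Psmd5, Psmd9 and Psmd10. Psmd9 had 48.7, 47.2 and 44.3 CPM in the IP replicates and 33.1, 38.1 and 34.9 CPM in the input replicates. Without overlap between the groups, its log2 fold change was 0.40 ± 0.13 (SE; adjusted p = 0.0429, edgeR). The call held in 5 of 18 alternatives: it was lost with the replicate block (adjusted p = 0.0567) and without each library in turn, apart from input replicate 2. Psmd10 was at 0.39 ± 0.18 (adjusted p = 0.134; called without input replicate 2 and after correction for length and GC) and Psmd5 at 0.11 ± 0.12 (adjusted p = 0.563).

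The activators Psme1 and Psme2, which form a ring that opens the barrel and are induced by interferon, were higher in IP, while the activator Psme4 was lower. Psme2 (chromosome 14, 55824898 to 55828570, minus strand, mm39) had 45.2, 41.9 and 41.2 CPM in the IP replicates and 15.0, 19.1 and 20.5 CPM in the input replicates. The groups did not overlap, and the log2 fold change was 1.23 ± 0.16 (SE; adjusted p = 0.00118, edgeR). Of the exonic bases of Psme2, 30.8% are shared with Rnf31 on the other strand. Psme1 was at 0.62 ± 0.19 (adjusted p = 0.0372) and lost its call without any one IP replicate or without input replicate 3, with 39.6% of its exonic bases shared with Emc9.

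Psme4, which encodes a large nuclear activator (chromosome 11, 30721726 to 30830361, plus strand, mm39), had 14.5, 18.6 and 15.8 CPM in the IP replicates and 35.3, 35.9 and 34.5 CPM in the input replicates. All IP libraries were below all inputs, and the inputs were almost equal. The log2 fold change was -1.11 ± 0.15 (SE; adjusted p = 0.00142, edgeR), a 2.16-fold lower level in IP. Psme4 has the longest canonical transcript of the tested members, 6492 bases, and after correction for length and GC with the block it was at -0.83 and still called lower. The nuclear activator Psme3 and the inhibitor Psmf1 were at 0.21 ± 0.11 and 0.25 ± 0.14 and were not called (adjusted p = 0.185 and 0.202). Corrected for length and GC with the block, Psme3 was at 0.34 and was called higher (adjusted p = 0.0373).

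The name rule also took in 3 genes that are not standard subunits, and 0 of them was called. Psme3ip1, which encodes a protein that binds Psme3, had 75.0, 84.7 and 70.0 CPM in the IP replicates and 55.9, 68.4 and 63.8 CPM in the input replicates. Its groups did not overlap, yet the log2 fold change of 0.29 ± 0.14 was not called (adjusted p = 0.15, edgeR). Psme2b, a copy of Psme2 whose reads may be split with it, was at 0.56 ± 0.29 (adjusted p = 0.185) and was called without input replicate 2. Psmc3ip, a gene of meiotic recombination, was at -0.44 ± 0.44 (adjusted p = 0.499), and 38.1% of its exonic bases are shared with Mlx. Without these 3 genes, 21 of 47 tested members were higher and 2 lower, with a median log2 fold change of 0.45. The processed pseudogene Psma5-ps, which the rule left out, had 260, 248 and 266 counts in the IP replicates and 255, 276 and 295 counts in the input replicates.

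The input libraries differed from one another in a shared order. Input replicate 1 was the lowest input for 41 of the 50 tested members, against 40.7% of all genes tested, and input replicate 2 the highest for 39 members, against 36.6% of all genes. The order of replicate 1 below 3 below 2 held for 35 members and for 12 of the 14 core subunits, against 26.4% of all genes. It was not particular to the proteasome. The same order held for 41 of 47 nuclear genes of respiratory complex I, 50 of 90 genes of cytosolic ribosomal proteins and 6 of 7 genes of the chaperonin TRiC. Members varied less among the IP libraries than among the inputs: their median SD on the log2 scale was 0.11 in IP and 0.22 in input, against 0.24 in IP and 0.30 in input over all genes. Taken within each pool of tissue, the median log2 ratio of IP to input was 0.70, 0.22 and 0.35 in replicates 1, 2 and 3. All pairs thus had a positive median, largest in replicate 1 and smallest in replicate 2, the reverse of the order of the inputs. The input is the divisor of this ratio, so a lower input raises it by construction. Of the members, 36 of 50 were higher in IP in all 3 pairs, against 29.0% of all genes. The part of the input differences in the calls was not tested beyond leaving out libraries.

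Shorter transcripts had higher log2 fold changes, among the members and over the whole table. Spearman's rho between the log2 fold change and the length of the canonical transcript was -0.42 over the 50 tested members and -0.23 over 18543 genes, and with GC content it was 0.37 and 0.20. These are correlations across genes that share the same 6 libraries, so the genes are not independent replicates. The median length was 1668 bases over the members and 2955 bases over all genes. Among transcripts below 1000 bases the median log2 fold change was 0.96 over 6 members and 0.60 over 645 other coding genes. From 1000 to 1500 bases it was 0.49 over 16 members and 0.40 over 1047 others, and from 1500 to 2000 bases it was 0.22 over 8 members and 0.22 over 1351 others. From 2000 to 3000 bases it was 0.34 over 8 members and 0.05 over 3033 others, and from 3000 to 5000 bases it was 0.31 over 10 members and -0.12 over 4778 others. Above 5000 bases it was -0.22 over 2 members, Psmb1 and Psme4, and -0.29 over 4028 others. Members from 1000 to 2000 bases were thus near other genes of their length, and those below 1000 or from 2000 to 5000 bases lay above them.

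**Figure D5:**
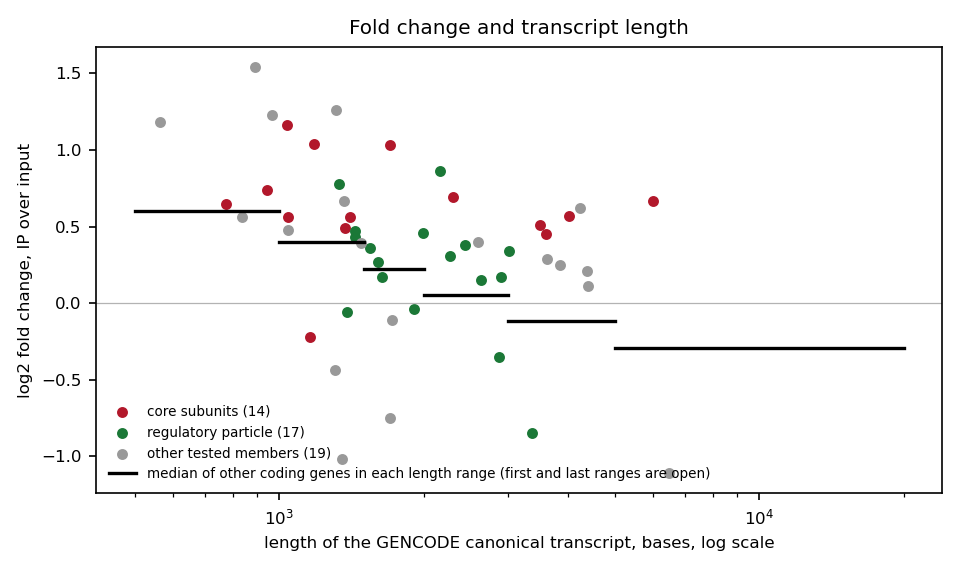
Log2 fold change, IP over input, against the length of the canonical transcript (log axis) for the 50 tested members, with core subunits in red, regulatory particle subunits in green and the rest in grey; black lines are medians of other coding genes in the same length range. The medians of other genes run from 0.60 for the shortest range to -0.29 for the longest.

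Within the core particle rho with canonical length was -0.24 over 14 genes, and within the regulatory particle it was -0.43 over 17 genes. With the deposited gene length rho was -0.40 in the core and -0.21 in the regulatory particle, so their order depended on the length used. With GC content rho was 0.62 in the core and 0.58 in the regulatory particle. Psmb1 and Psmb2, with canonical transcripts of 6002 and 4019 bases, had log2 fold changes of 0.67 and 0.57. Their deposited gene lengths were 4595 and 1204 bases, so Psmb2 was long by the canonical transcript alone. The correction for length used the canonical transcript, and a correction by the deposited length was not made. After correction for length and GC with the block the median was 0.72 over the core subunits and 0.25 over the regulatory particle, so the core stayed above the regulatory particle.

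Other large complexes gave a scale for these counts. Of 90 tested genes of cytosolic ribosomal proteins 40 were higher and 2 lower in IP, with a median log2 fold change of 0.54. Of 47 nuclear genes of respiratory complex I 38 were higher and 0 lower, with a median of 0.96. Of the 7 genes of the chaperonin TRiC 1 was higher and 1 lower, with a median of 0.27. The core particle was at 0.61 and the regulatory particle at 0.31. After correction for length and GC with the block, the medians were 0.72 for the core particle, 0.25 for the regulatory particle, 0.32 for the ribosomal proteins, 0.78 for complex I and 0.39 for the chaperonin, so that the order of these families depended on the correction. Differences between them were not tested.

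Proteasome genes that lie outside the Psm names were counted in the same fit. Of 11 subunits and partners tested 4 were higher and 0 lower. Sem1, a small lid subunit, had 111.4, 94.3 and 118.4 CPM in the IP replicates and 33.9, 42.8 and 45.4 CPM in the input replicates. Its groups did not overlap, and the log2 fold change of 1.41 ± 0.16 (SE; adjusted p = 0.000648, edgeR) exceeded that of all lid members with a Psm name. Pomp, the maturation factor of the core particle, had 311.8, 334.9 and 379.1 CPM in the IP replicates and 121.6, 158.0 and 144.3 CPM in the input replicates. Again without overlap, it rose by 1.28 ± 0.14 (adjusted p = 0.000603). Sem1 and Pomp kept their calls without any one library. Akirin2, needed for import of proteasomes into the nucleus, and Zfand2a, a proteasome-binding stress protein, rose by 0.44 and 0.37 on the log2 scale (adjusted p = 0.0412 and 0.0432). Both lost their calls without any one IP replicate or without input replicate 3, and Akirin2 also without input replicate 2. The block ended the call of Zfand2a (adjusted p = 0.0556). Adrm1, a ubiquitin receptor of the base, was at 0.22 ± 0.14 (adjusted p = 0.275). Uchl5, a deubiquitinase of the regulatory particle, was not called at 0.41 ± 0.19 (adjusted p = 0.131) but was with the block (adjusted p = 0.0477). Correction for length and GC with the block called Uchl5, Usp14, Txnl1 and Zfand5 higher. In the reported fit Usp14, Txnl1 and Zfand5 were at -0.06, 0.34 and 0.05 and were not called, so the correction turned the sign of Usp14.

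Of 10 genes that deliver substrates 1 was higher, the unfoldase Vcp at 0.45 ± 0.11 (adjusted p = 0.018, edgeR), which lost the call without IP replicate 1 or 2. Of 6 genes for ubiquitin and its activating enzymes 2 were higher and 1 lower. Ubb, a polyubiquitin gene, was at 0.60 ± 0.19 (adjusted p = 0.0463) and lost its call without any one IP replicate or input replicate 3. Rps27a, a fusion of ubiquitin with a ribosomal protein, was at 1.10 ± 0.25 (adjusted p = 0.0136) and lost it without IP replicate 3 or input replicate 3. Uba6, an activating enzyme, was at -0.64 ± 0.17 (adjusted p = 0.0223), a call that ended without IP replicate 1 or 2 or once length and GC were corrected with the block. The deubiquitinases Uchl1 and Otub1, abundant in neurons, rose by 0.68 and 0.55 on the log2 scale (adjusted p = 0.0486 and 0.022). Uchl1 lost its call without any one IP replicate or input replicate 1 or 3, and Otub1 without IP replicate 1 or 2 or input replicate 3.

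Of 4 genes listed for the transcription of proteasome genes, 1 was higher and 1 lower, against 12.9% and 17.1% of all genes. Ngly1 and Ddi2, at -0.22 and 0.05, were not called. Nfe2l1 is the factor that induces proteasome genes when the proteasome is short of capacity. It had 429.9, 471.0 and 397.5 CPM in the IP replicates and 324.1, 238.4 and 301.6 CPM in the input replicates. Its groups did not overlap, and it rose by 0.59 ± 0.14 (adjusted p = 0.0174, edgeR), a call lost without IP replicate 2. Nfe2l2, its relative in the oxidative stress response, had 2.39, 2.04 and 3.81 CPM in the IP replicates and 18.3, 17.8 and 19.7 CPM in the input replicates. Far apart in the groups, it was at -2.76 ± 0.27 (adjusted p = 0.000316).

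Of 9 antigen presentation genes, induced together with the immunoproteasome, 0 were higher and 3 lower in IP. B2m was at -1.10 ± 0.24 (adjusted p = 0.0107, edgeR) and Irf8 at -2.06 ± 0.46 (adjusted p = 0.0119), and both kept their calls without any one library. Erap1 was at -1.23 ± 0.35 (adjusted p = 0.0303) and kept its call without input replicate 1 alone among the single libraries left out. Correction for length and GC with the block also ended its call. The other 6 antigen presentation genes were not called. Of the members that interferon also induces, Psmb10, Psme1 and Psme2 were higher in IP, with the call of Psme1 lost in several fits as given above. Psmb8 and Psmb9 were at -0.75 and -1.02 and were not called.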

How the data were processed

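Per the labels' protocols and design text, ribosome-bound RNA and input RNA were poly(A)-selected and sequenced as paired ends of 75 bp. The submitters' processing notes name HISAT2 for alignment, featureCounts for counting, DESeq2 and the build mm39. Versions, annotation and strand setting are not given in the sources used here. The authors deposited raw counts per gene, which alone entered the tests. The authors also deposited a normalized signal, the counts divided by 1 size factor per library. The deposited FPKM values divide that signal by gene length and were used to compare genes. The authors' deposited log2 fold changes and p-values were not used for any result.

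edgeR 4.0.16 (R 4.3.3) fitted all genes with TMM scaling, filterByExpr and group as the factor, by the quasi-likelihood test, two-sided, with Benjamini-Hochberg adjustment over 18640 genes and a threshold of 0.05. The code of the fit was run on simulated counts that had no effect of the pools, so this run cannot give its error rate in these data. SE is the log2 fold change divided by the square root of F. CPM use TMM-scaled library sizes. P-values measure the spread between these 3 pools per group, and depth was alike in the 6 libraries.

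Members, roles, lists and the alternatives were chosen with earlier results of these data known. Values in every library are given for the catalytic subunits, for the called member of each role with the largest rise or fall (or the most abundant where none was called), and for members whose call changed in most of the 18 alternatives; Psmg4 and genes outside the name rule were added after their values were seen. Alternatives were DESeq2 1.42.0, RLE, upper-quartile and total scaling, 2 other low-count filters, the replicate block, length and GC splines of 4 degrees of freedom, and libraries or replicates left out. Transcript length, GC content and exon overlaps came from GENCODE M39, where 27576 identifiers were found at the same place. Promoters are RefSeq windows on GRCm38.p6, the first listed for each gene; their coordinates are not those of mm39.

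The IP and input library of one number were made from one pool, per the design text, and are therefore paired. Deviations from the group means correlated at 0.26, 0.14 and 0.10 for same-numbered libraries and between -0.22 and 0.09 for others. A list of 12 further proteasome genes held 1, Paaf1, that was not analysed here.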

Additional observations from a re-analysis of the deposited data

How the results depend on the processing

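Members called higher numbered 21 in the reported fit, 22 with RLE factors, 18 with upper-quartile factors, 25 with DESeq2, and 21 each without a low-count filter or with at least 1 CPM in a group; 2 were lower in these fits. Their median log2 fold change ran from 0.32 to 0.60 over all alternatives. With the replicate block 24 were higher, with Psma3, Psma6, Psmc4 and Psmg2 gained and Psmd9 lost, and the block changed no other call among the members. Over single libraries or replicates left out, 2 to 29 members were higher and 0 to 2 lower. The lowest values came without replicate 3, where Psmb10 and Psme2 were the 2 higher members and where the whole table had 133 genes higher and 742 lower. Over all such fits the whole table had 133 to 2630 genes higher and 742 to 3080 lower. Fewer samples entered these fits.

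Of 896 pairs of a gene and an alternative, 759 kept sign and call, 89 lost the call, 33 gained one and 15 turned in sign, all 15 for genes that were not called. Psmc3, at 0.17 as reported, was at -0.06 after length and GC correction, with and without the replicate block. Psmd12 was at 0.00027 after that correction without the block, and Psmd5 at -0.00018 with library totals alone. With single libraries or replicates left out, Psma8 ran from -0.52 to 0.26, Psmd6 from -0.15 to 0.09 and Psmd12 from -0.18 to 0.08. The cause was not tested. The log2 ratio of immunoproteasome to constitutive catalytic subunits was -2.18 in IP and -2.59 in input from summed CPM, without overlap between the groups, in place of -2.38 in IP and -2.64 in input from FPKM, where the ranges overlapped. The coefficient of variation of the core subunits was 71.8% in IP and 57.3% in input with canonical lengths, so that both results change with the length that divides the counts. Few counts limit Psmb8, Psmb9, Psma8 and Psmb11. Protein sequences were not compared.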
